A study of Mus musculus with 29 samples.

Results

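The genes described here are 9 mouse genes whose proteins belong to or are tied to the subcortical maternal complex: Nlrp5, Ooep, Tle6, Khdc3, Padi6, Zbed3, Nlrp2, Nlrp14 and Nlrp4f. They were taken by name, and all 9 were found among the 20554 protein-coding genes on chromosomes 1 to 19 of the mm10 build. The subcortical maternal complex is a multiprotein assembly of the oocyte that lies beneath the cortex of the egg and of the cleaving embryo. Many of its genes are transcribed in the growing oocyte, and females lacking several of them produce embryos that arrest in early cleavage. Nlrp5 (also called Mater), Ooep (Floped), Tle6 and Khdc3 (Filia) encode its core, and Padi6, Zbed3 and several Nlrp genes encode proteins associated with it. Monoubiquitinated histone H2A (H2AK119ub, here H2Aub) is laid down by Polycomb repressive complex 1, and H3K27me3 by Polycomb repressive complex 2. Both marks are known mainly from repressed genes.

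The study profiled these marks in 29 CUT&RUN libraries of oocytes and embryos in 16 groups. CUT&RUN cuts out and sequences the DNA near an antibody that is bound to the mark. H2Aub was measured in wild-type germinal vesicle oocytes (labelled Eed (fl/fl), B6/129 mixed background), metaphase II oocytes (B6/DBA), zygotes, 2-cell and 4-cell embryos, morulae, inner cell mass and single E6.5 epiblasts. The embryos are labelled as crosses with PWK, of B6/DBA (WT x WT) or of B6/129 mixed (Eed (fl/fl) x WT). Oocytes, 4-cell embryos and morulae labelled Gdf9-Eed (fl/fl) lacked the mother's Eed, without which Polycomb repressive complex 2 does not work. Gdf9 is a gene expressed in oocytes, and the embryos of this group are crosses with wild-type PWK. At the 4-cell stage B6/DBA x PWK embryos labelled PR-DUB (CTR) and PR-DUB (OE), PR-DUB being the H2A deubiquitinase and OE the group that the design text calls depleted of H2Aub, were profiled for both marks, and wild-type B6/DBA germinal vesicle oocytes for H3K27me3. Libraries pooled up to 300 oocytes or embryos, and no label used here states the age of the animals.

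The values analysed were 1 segmentation of the genome made for the whole series, in which each stretch of DNA carries an H2Aub type from 1 to 5. The types have no key, so no level of H2Aub is attached to a number. No library has a value in it, the depth is unknown, and no difference between stages, Eed genotypes or PR-DUB groups was analysed here. Each value below is therefore a single reading with no replicate error, and no test was made. A segment is a run of 1 type, and its borders lie on a 5 kb grid. The main type of a gene is the type that covers most of its body, and its window is the body with 100 kb on each side. Positions are counted from 1.

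The 9 genes fell into 2 of the 5 types. Nlrp5, Ooep, Nlrp2, Nlrp14 and Nlrp4f had main type 1, and Tle6, Khdc3, Padi6 and Zbed3 had main type 3. Thus 5 of 9 genes took type 1, against 37.2% of all protein-coding genes, and 4 of 9 took type 3, against 33.8%. By the bin at the start site, 4 of the 8 genes with a listed start were in type 1 and 4 in type 3. The shares were 32.2% and 39.8% of the 16456 protein-coding genes with a listed start, a smaller set than that of the main types. None took type 4 (14.0% of protein-coding genes), type 5 (9.54%) or type 2 (5.43%). All 4 Nlrp genes were in type 1, whereas the other 5 genes were in type 3 apart from Ooep. The body of every gene except Nlrp14 lay wholly in 1 segment, 8 of 9 against 68.7% of protein-coding genes. No 2 of the 9 genes shared a segment. With so few genes these counts are a description only.

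**Figure D1:**
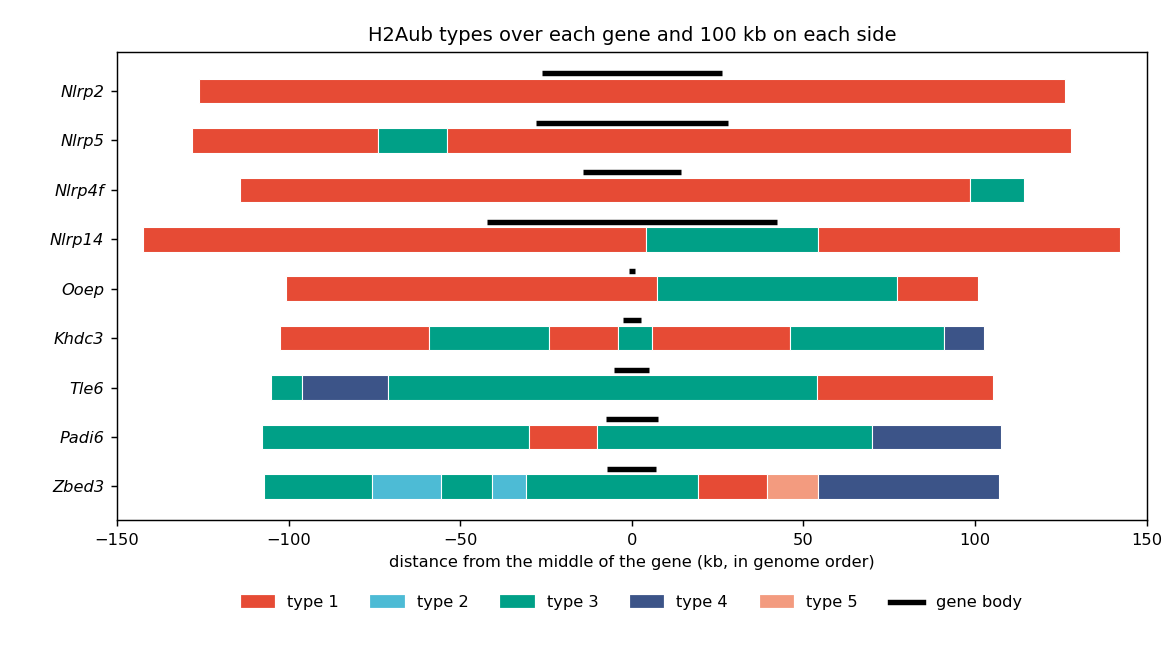
Map of H2Aub types around the 9 genes. The x axis is the distance in kb from the middle of each gene in genome order, coloured bars are segments cut at 100 kb beyond the gene, and black lines are gene bodies. Nlrp2 lies in 1 unbroken type 1 segment, Nlrp14 crosses from type 1 into type 3, and Khdc3 sits in a 10 kb type 3 segment.

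The sequences just upstream of the start sites are shown for 4 genes that have a single start in RefSeq's promoter table, whose build, GRCm38.p6, is that of mm10: Ooep and Nlrp2 in type 1, and Khdc3 and Padi6 in type 3. Each is the 250 bases before the start, 5′ to 3′ on the gene's strand, and capitals mark matches to CANNTG (the E-box, a motif bound by the oocyte factor FIGLA among many others) or to TAATTG on either strand (bound by the oocyte factor NOBOX). CANNTG reads alike on both strands. The stretches are chr9:78378589-78378838 for Ooep and chr7:5351036-5351285 for Nlrp2, both on the minus strand. They are chr9:73102148-73102397 for Khdc3, on the plus strand, and chr4:140742644-140742893 for Padi6, on the minus strand.
Ooep: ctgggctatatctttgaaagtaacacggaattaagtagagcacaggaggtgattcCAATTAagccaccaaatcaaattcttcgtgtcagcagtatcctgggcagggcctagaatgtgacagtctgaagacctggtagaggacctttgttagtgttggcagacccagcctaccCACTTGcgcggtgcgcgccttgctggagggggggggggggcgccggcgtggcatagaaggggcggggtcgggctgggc
Nlrp2: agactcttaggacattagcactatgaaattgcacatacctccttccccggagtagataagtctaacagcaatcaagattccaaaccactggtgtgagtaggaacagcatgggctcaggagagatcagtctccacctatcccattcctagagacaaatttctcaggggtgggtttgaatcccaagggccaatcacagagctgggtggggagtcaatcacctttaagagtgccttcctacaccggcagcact
Khdc3: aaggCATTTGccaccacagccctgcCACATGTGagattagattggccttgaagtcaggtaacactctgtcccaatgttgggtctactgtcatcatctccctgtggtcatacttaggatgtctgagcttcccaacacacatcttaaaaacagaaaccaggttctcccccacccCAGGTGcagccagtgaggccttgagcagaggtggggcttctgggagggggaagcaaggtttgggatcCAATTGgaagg
Padi6: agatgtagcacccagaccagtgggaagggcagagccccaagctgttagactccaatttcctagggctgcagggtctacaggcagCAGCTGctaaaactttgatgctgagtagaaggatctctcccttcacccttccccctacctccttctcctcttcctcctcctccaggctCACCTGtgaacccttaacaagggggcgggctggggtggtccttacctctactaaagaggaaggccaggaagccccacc

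Khdc3 held 5 matches to CANNTG, of which 2 overlap each other, and no CpG. At least as many matches stood before 1.15% of the 32851 starts in the table. The listed start of Khdc3 (73102398) lies inside the gene as annotated from 73101381, so the stretch shown for it is within the gene body. Padi6 held 2 matches, Ooep and Nlrp4f 1 each, and none was found before Nlrp2. The genes with several starts, taken in genome order, held 4 and 2 (Tle6), 3, 1 and 1 (Zbed3) and 2 and 2 (Nlrp5). At least 4 matches stood before 3.84% of all starts and at least 3 before 12.2%. A match to CANNTG stood before 66.2% of all starts and a match to TAATTG before 7.17%. Ooep held the only TAATTG match, read on the opposite strand, among the 12 starts of the 8 genes in the table, and it overlapped no CANNTG match. The upstream stretch of Ooep held 11 CpG, that of Nlrp2 held 2, that of Padi6 held 1, and that of Nlrp4f, which also has a single start, held 2. At the genes with several starts the counts of CpG were 1 and 17 for Tle6, 2, 13 and 5 for Zbed3, and 7 and 1 for Nlrp5. Over all starts the median was 6 (quartiles 2 and 16). It was 8 for starts in type 1 and also 8 for starts in type 3, so the number of CpG did not separate these types over the whole table. Matches are descriptions of these letters and not sites of binding. Nlrp14 has no entry in the table.

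Nlrp5 encodes the leucine-rich repeat protein around which the complex was first described. The gene (chromosome 7, 23385889 to 23441923) lay wholly in a type 1 segment of 405 kb (23360001 to 23765000). Its lower end was 25.9 kb from the segment's start and its higher end 323 kb from the segment's end. A 20 kb type 3 segment (23340001 to 23360000) separated this stretch from the type 1 segment of 3370 kb below it, and over the window 92.2% was type 1 and 7.81% type 3. Nlrp4e, the nearest gene on the lower side at 23.6 kb, spanned that type 3 segment and was 67.3% type 1 and 32.7% type 3. On the other side the pheromone receptor gene Vmn1r167 lay 62.7 kb away in type 1. Both RefSeq starts of Nlrp5 (23385889 and 23404102, plus strand) were in type 1.

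Ooep encodes a KH domain protein of the core. The gene (chromosome 9, 78376903 to 78378588) is 1.69 kb long and lay in a type 1 segment of 155 kb (78230001 to 78385000), 6.41 kb from a border with a type 3 segment of 70 kb. Its start site at 78378588 faces that border. The same type 1 segment wholly held 7 other protein-coding genes, among them Dppa5a, a KH domain gene 8.70 kb away, and the oocyte maturation genes Omt2a and Omt2b. Across the border, Ddx43, a helicase gene, and Cgas, the gene of the cytosolic DNA sensor, lay wholly in type 3. Over the window 65.3% was type 1 and 34.7% type 3.

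Khdc3, the other KH domain gene of the core, is on the same chromosome (chromosome 9, 73101381 to 73106631) but not in the same type. It lay in a type 3 segment of 10 kb (73100001 to 73110000), which is only 2 steps of the grid. Of all protein-coding genes, 1.20% lay mainly in a segment of 10 kb or less. Type 1 segments of 20 and 40 kb flanked it, 1.38 kb from its lower end and 3.37 kb from its higher end. Type 3 segments of 35 and 45 kb followed on either side, and a type 4 segment began 88.4 kb away on the higher side. The window was 50.5% type 1, 43.8% type 3 and 5.67% type 4, so more of it was type 1 than the gene's own type. The neighbouring ribosome biogenesis gene Rsl24d1 was wholly type 1, and Rab27a, a gene of vesicle transport, was 66.3% type 3.

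Tle6 encodes a member of the Groucho family of co-repressors. The gene (chromosome 10, 81590904 to 81601185) lay in a type 3 segment of 125 kb (81525001 to 81650000) together with its relatives Tle5, 24.5 kb away, and Tle2, whose end overlaps that of Tle6. Sirt6, a deacetylase gene 20.6 kb away on the other side, was also wholly in this segment, as were Gna11 and Ankrd24. Below the segment a type 4 segment of 25 kb covered Gna15, a G protein gene, and above it a type 1 segment of 520 kb began 48.8 kb from Tle6. The window was 63.8% type 3, 24.3% type 1 and 11.9% type 4.

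Padi6 encodes a member of the peptidylarginine deiminase family that is needed for the cytoplasmic lattices of the oocyte. The gene (chromosome 4, 140727355 to 140742643) had its lower end 2.35 kb inside a type 3 segment of 80.0 kb (140725001 to 140805000). The family lies in a row here, and its type changed along the row. Padi4, 2.86 kb from Padi6, was wholly in the same type 3 segment. Padi3 crossed its end and was 77.7% type 3 and 22.3% type 4, and Padi1 was wholly in the type 4 segment of 80 kb that followed. Padi2, beyond it, was wholly in type 3. On the other side a 20 kb type 1 segment covered 83.8% of Rcc2, a gene of chromosome segregation. The window of Padi6 was 73.2% type 3, 17.5% type 4 and 9.29% type 1.

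Zbed3, a zinc finger protein gene, stood in the window with the most types. The gene (chromosome 13, 95323605 to 95337842) lay in a type 3 segment of 50.0 kb (95300001 to 95350000), and all 3 of its RefSeq starts were in it. Within 100 kb there were 8 segments and all 5 types: 45.0% type 3, 24.7% type 4, 14.0% type 2, 9.34% type 1 and 7% type 5. It alone among the 9 genes had type 2 or type 5 in its window. Going up from the gene, a 20 kb type 1 segment covered most of Aggf1, an angiogenic factor gene, a 15 kb type 5 segment followed, and a type 4 segment of 235 kb held Crhbp, which encodes a binding protein of corticotropin-releasing hormone.

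Nlrp2, Nlrp14 and Nlrp4f belong to the same family of NACHT and leucine-rich repeat proteins as Nlrp5. Nlrp2 (chromosome 7, 5298547 to 5351035) lay deep in a type 1 segment of 840 kb (5060001 to 5900000), 239 kb from its nearest border, and its whole window was type 1. Windows of a single type were found for 8.82% of protein-coding genes. Nlrp4f (chromosome 13, 65177111 to 65205716) lay wholly in a type 1 segment of 235 kb (65055001 to 65290000), and 93.1% of its window was type 1 and 6.87% type 3. Nlrp14 (chromosome 7, 107113455 to 107198103), also expressed in the male germ line, was split by a border at 107160001. The lower 55.0% of its body belonged to a type 1 segment of 165 kb and the upper 45.0% to a type 3 segment of 50 kb. The olfactory receptor genes Olfr715 and Olfr716 overlap the type 1 part of Nlrp14 in the annotation. Because the type 3 part was nearly as long, the call of Nlrp14 was the least firm of the 9, and the type at its higher end was 3.

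Pooled over the windows of the 9 genes, 1263 of 2069 kb (61.0%) was type 1, 30.6% type 3, 6.15% type 4, 1.45% type 2 and 0.725% type 5. The windows of all protein-coding genes averaged 34.5% type 1, 34.8% type 3, 14.8% type 4, 5.87% type 2 and 10% type 5. This average gives each gene equal weight, whereas the pooled shares give longer windows, such as those of the long Nlrp genes, more weight. By length of chromosomes 1 to 19, type 1 took 32.1%, type 3 19%, type 4 13.6%, type 2 11.2% and type 5 24.0%. Each of the 9 windows held some type 1, 8 held type 3, 4 held type 4, and 1 held type 2 and type 5. Most protein-coding genes also had types 1 and 3 within 100 kb. The upper quartile of the distance to the nearest segment was 77.0 kb for type 1 and 46.9 kb for type 3. Windows of types 1 and 3 only were those of the 5 genes of main type 1, and 28.6% of protein-coding genes had such windows. The 4 genes with type 4 in the window were the 4 of main type 3, whereas 48.0% of protein-coding genes had type 4 within 100 kb. Type 5 stood within 100 kb of 25.6% of protein-coding genes and type 2 of 35.6%.

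**Figure D2:**
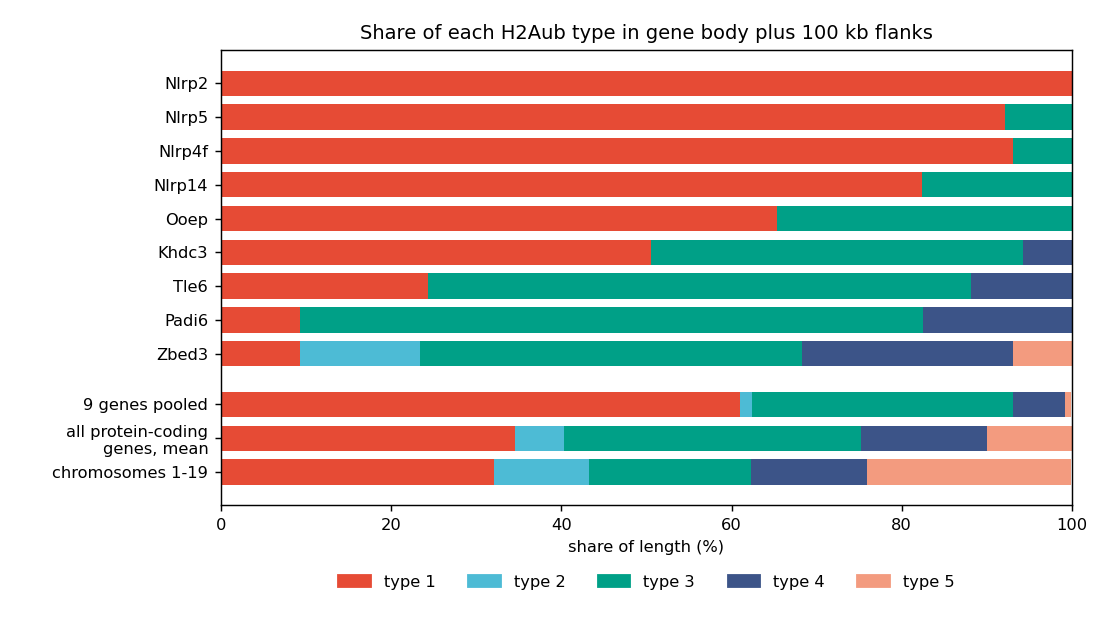
Share of length in each H2Aub type, in percent, for the window of each of the 9 genes (body with 100 kb on each side). The lower bars give the 9 windows pooled, the mean over the windows of all protein-coding genes, and chromosomes 1 to 19 as a whole. Type 1 falls from 100% around Nlrp2 to 9.29% around Padi6.

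The genes of type 1 lay in longer segments than those of type 3. The segments were 840 kb for Nlrp2, 405 kb for Nlrp5, 235 kb for Nlrp4f, 165 kb for Nlrp14 and 155 kb for Ooep, against 125 kb for Tle6, 80.0 kb for Padi6, 50.0 kb for Zbed3 and 10 kb for Khdc3, so the groups did not overlap. Over all protein-coding genes the 2 types overlapped widely in segment length. The median was 120 kb for genes of main type 1 (quartiles 60.0 and 235 kb) and 100 kb for those of main type 3 (quartiles 50.0 and 170 kb). Gene length followed this order only in part. Nlrp14, Nlrp5 and Nlrp2 were the longest of the 9 genes at 84.6, 56.0 and 52.5 kb, but Ooep, also in type 1, was the shortest at 1.69 kb, and Nlrp14 lay in the second shortest of the type 1 segments.

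Distance to the nearest type 4 segment also divided the 9 genes. It was 47.2 kb for Zbed3, 62.4 kb for Padi6, 65.9 kb for Tle6 and 88.4 kb for Khdc3. For the genes of type 1 it was 216 kb for Ooep, 518 kb for Nlrp5, 584 kb for Nlrp2, 707 kb for Nlrp4f and 1323 kb for Nlrp14. Over all genes of these types the distances overlapped. The median of main type 1 was 220 kb (quartiles 80.9 and 563 kb) and that of main type 3 was 106 kb (quartiles 24.6 and 280 kb). Ooep was thus close to the median of its type, and 3 of the 4 Nlrp genes were above its upper quartile.

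**Figure D3:**
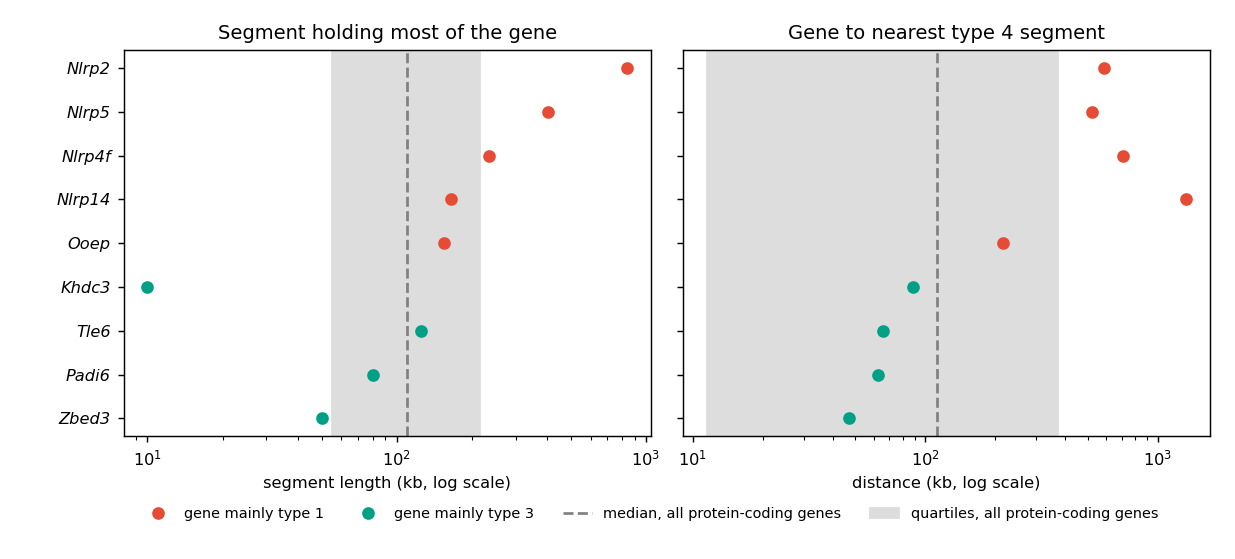
Length of the segment holding most of each gene (left) and distance from the gene to the nearest type 4 segment (right), both in kb on log axes. Red points are genes of main type 1 and green points genes of main type 3, the dashed line is the median of all protein-coding genes and the grey band their quartiles. Every red point is to the right of every green point in both panels.

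Sensory receptor genes, which form large tandem families, stood beside the Nlrp genes. All 4 had an olfactory or vomeronasal receptor gene within 100 kb and none of the other 5 genes did. Of 20554 protein-coding genes 1866 (9.08%) had one, but this share counts receptor genes that lie near each other. Only 459 of the 1866 were not receptor genes themselves, as the 9 genes are not. Of the 15 protein-coding neighbours in the windows of the 4 Nlrp genes, 11 were such receptor genes, 6 of them around Nlrp14. Of the 459 genes, 40.7% had main type 1, near the 37.2% of all protein-coding genes. The part of this gene content in the types of the Nlrp genes was not tested. Over all 9 windows, 29 of 47 neighbours had main type 1, 15 type 3 and 3 type 4, against 37.2%, 33.8% and 14.0% of all protein-coding genes. Around the genes of type 1 among the 9, 21 of 24 neighbours shared the type, and around those of type 3, 12 of 23 did. The like share around all genes of these types was not computed. Neighbours inside the same segment share its type by definition, so these counts are a description only. Type 1 was also the type of the first segment of all 19 chromosomes, which was at least 2.99 Mb long. Of the stretch before the first annotated gene, 96.7% to 100% by chromosome was type 1. In the mouse assembly these chromosome starts are gaps of unknown sequence, to which no read can be mapped. The types have no key, and whether this bears on the type 1 call of any of the 9 genes was not tested.

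The rest of the Nlrp family was taken by name as 18 further genes. They include pseudogenes and are set beside all annotated genes. Of the 18, 10 had main type 1 (33.0% of all annotated genes), 3 type 3 (31.0%), 3 type 4 (15.9%), 1 type 2 (7.20%) and 1 type 5 (12.8%). The gene of type 2, Nlrp1c-ps, and that of type 5, Nlrp4d, are both pseudogenes. Several share a segment: the 18 genes lay mainly in 15 segments. The family holds genes known from oocytes and testis (Nlrp2, Nlrp4, Nlrp5, Nlrp9 and Nlrp14 genes) and genes known from inflammasomes and other innate immune functions (Nlrp1, Nlrp3, Nlrp6, Nlrp10, Nlrp12 and Nlrx1). This grouping was made after the types had been seen, so the counts by group only describe it and cannot serve as support. In the first group all 12 protein-coding genes had main type 1, in 9 segments, against 37.2% of all protein-coding genes. The 12 include the 4 Nlrp genes described above, and Nlrp14 (55.0%) and Nlrp4e (67.3%) were type 1 only in part. With pseudogenes counted, 13 of 14 had main type 1 and 1 had type 5, against 33.0% and 12.8% of all annotated genes. Nlrp4a, Nlrp9a and Nlrp9c shared a segment of 525 kb, Nlrp9b and most of Nlrp4e lay in that of 3370 kb, and Nlrp4b lay in one of 1090 kb. In the second group 1 of 7 protein-coding genes had main type 1, 3 had type 3 and 3 type 4, against 37.2%, 33.8% and 14.0% of all protein-coding genes. Nlrp3, the inflammasome sensor, Nlrp6 and Nlrx1 were wholly type 3, and Nlrp10 was wholly type 4. Nlrp12, the 1 in type 1, lay in the 3280 kb segment that begins chromosome 7.

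Nlrp1a and Nlrp1b, which encode inflammasome sensors and lie side by side on chromosome 11, were cut into more pieces than any of the 9 genes. Nlrp1a was 74.3% type 4, 18.6% type 5 and 7.07% type 1, and Nlrp1b was 41.6% type 4, 25% type 3, 16.7% type 2 and 16.7% type 5. The pseudogene Nlrp4d was wholly type 5, although it lies on chromosome 7 as does Nlrp4b in type 1. Nlrp5-ps, a pseudogene, was 96.7% type 1.

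**Figure D4:**
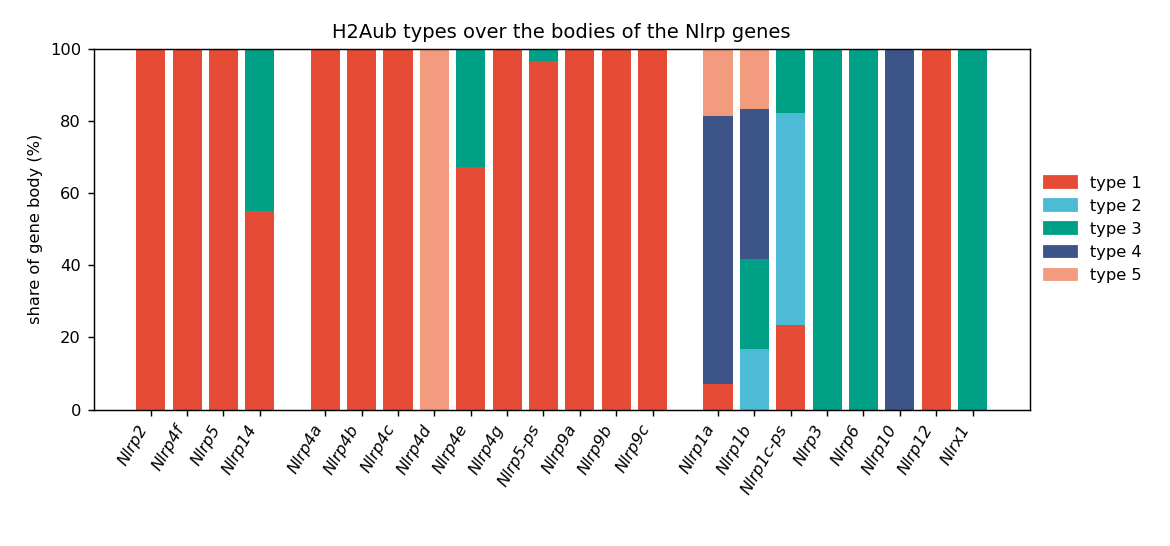
Share of each gene body in each H2Aub type, in percent, for all 22 Nlrp genes. The 4 bars on the left are Nlrp2, Nlrp4f, Nlrp5 and Nlrp14, the middle bars the other genes of the Nlrp4, Nlrp5 and Nlrp9 groups, and the bars on the right the remaining genes. Type 1 covers most of every bar on the left and in the middle except Nlrp4d.

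The gene whose window had the type shares closest to each of the 9 genes was sought among all protein-coding genes with a separate window, by the sum of the absolute differences of the 5 shares. For Nlrp2 the sum was 0 for 849 genes, 188 of them receptor genes. Within 10 percentage points there were 1107 genes for Nlrp2, 479 for Nlrp5, 621 for Ooep, 501 for Nlrp14 and 459 for Nlrp4f, of 20554 protein-coding genes. The closest were Nqo1 for Nlrp5, Ago2 for Ooep, Ocln for Nlrp14 and Zfp729b for Nlrp4f. Fewer genes were as close to those of type 3: 115 for Tle6, 74 for Padi6 and 66 for Khdc3, led by Mbd6, Rrp9 and Csnk1g2. No gene came within 10 points of Zbed3, and the closest, 4921504E06Rik, was 12.5 points away.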

How the data were processed

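The 29 libraries were made by CUT&RUN for H2Aub or H3K27me3. The submitters' processing notes name deepTools 3.0.2, Picard 2.8.0, Bowtie2 2.3.4.3, Trim Galore 0.4.5 and the mm10 build. The authors deposited 1 table of H2Aub ChromHMM types, which holds a category from 1 to 5 per segment and no quantity or other score. ChromHMM assigns stretches of a genome to hidden states learned from signal tracks. The sources used here do not give its version, its input libraries, any pooling or the meaning of the types. Samples were grouped by their titles, but no library has a value, so depth and replicate error are unknown and no test was made.

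From the 31563 segments, types were laid on 5 kb bins of chromosomes 1 to 19. In 261 bins (0.0530%), none of them in the windows of the 9 genes, 2 segments overlapped and the shorter was used. Gene positions came from the RefSeq table of GRCm38.p6, without 333 genes placed on separate scaffolds. Lengths of each type were summed over gene bodies and windows with Python 3.11.15, numpy 2.4.6 and pandas 2.3.3, and the functions were tested on simulated data. Start sites and upstream sequences came from the RefSeq promoter table, and the comparison of proteins was not made, as no protein sequences were used here.

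The 9 genes, the lists and the settings varied were chosen with earlier results of these data known. Named genes are the 9 genes, the nearest protein-coding gene on each side, genes of the fixed lists, and for each of the 9 the gene with the most similar window. Other genes in the windows (Omt2a, Omt2b, Cgas, Gna11, Gna15, Ankrd24, Crhbp, Olfr715 and Olfr716) were named after their types had been seen.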

Additional observations from a re-analysis of the deposited data

How the results depend on the processing

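No paired analysis was possible because no library has a value in the segmentation, and for the same reason no library could be left out. The counts of the 9 genes by main type stayed within 1.5 times, with type 1 holding 4 to 6 genes and type 3 holding 3 to 5, under the middle bin, either end bin, the start site bin (8 genes), the body with 5 kb on each side, the longer segment in overlaps, genes within 100 kb merged, and segments under 25 kb given to the longer neighbour. The last was chosen after seeing the data. None of the 9 genes lay within 100 kb of another, and no overlap of segments lay in their windows. The merging and the overlap setting therefore could not change these counts. Nlrp14 took type 3 by its higher end, and Khdc3 took type 1 with short segments given away, since its own type 3 segment is 10 kb long. Over all annotated genes in place of protein-coding genes the background was 33.0% type 1, 7.20% type 2, 31.0% type 3, 15.9% type 4 and 12.8% type 5. In the pooled windows, 20 kb on each side gave 66.9% type 1 and 0 for types 2, 4 and 5. With 50 kb on each side type 3 was 36.6% and type 4 was 0.243%, and with 200 kb type 2 was 5.41% and type 4 was 9.12%. With short segments given away type 5 was 0. Type 5 was 1.28% with 50 kb and 0.610% with 200 kb. Both of these and the pooled shares not listed lay within the 95% Clopper-Pearson interval of the bins, which are not independent. With neighbouring Nlrp genes up to 100 kb apart merged (14 in place of 18), type 2 held 0. By at least 90% of the body in 1 type, the count stayed at 8 of 9.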

Other observations

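Relatives of the other genes were taken by name from lists. All 4 listed KH domain genes, Khdc1a, Khdc1b, Khdc1c and Dppa5a, lay wholly in type 1 (the main type of 37.2% of protein-coding genes), as Ooep did, whereas Khdc3 lay in type 3. The first 3 lie in a row on chromosome 1 and shared 1 segment, and Dppa5a shares that of Ooep. Of the 6 Groucho/TLE genes, Tle2 and Tle5 beside Tle6 were wholly type 3, Tle3 and Tle7 wholly type 4, Tle4 wholly type 1 and Tle1 87.9% type 1, so that each of these types was the main type of 2 genes (33.8%, 14.0% and 37.2% of protein-coding genes for types 3, 4 and 1). The 3 other zinc finger BED genes, Zbed4, Zbed5 and Zbed6, had main type 1, against 37.2% of protein-coding genes, whereas Zbed3 had type 3.

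Of 23 other genes known for maternal or oocyte functions, 22 lay on the segmented chromosomes. Type 3 was the main type of 10 of them (33.8% of protein-coding genes), type 1 of 8 (37.2%), type 2 of 3 (5.43%), type 4 of 1 (14.0%) and type 5 of 0 (9.54%). In type 3 were Dppa3, a protector of maternal DNA methylation, the oxidase gene Tet3, the mRNA decay factor gene Btg4, and Figla, Nobox and Lhx8, which encode transcription factors of the oocyte. Zar1, Zfp57, Smarca4, Ctcf and Setdb1 were wholly type 1, and Zar1l was 73.6% type 1. Type 2, which held none of the 9 genes, held Zfp36l2 and Hsf1 wholly and 91.7% of Uhrf1. Sohlh1, an oocyte transcription factor gene, was wholly type 4.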
